A study of Mus musculus with 5 samples.

Results

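Tnfrsf1b and Tnfrsf8 are neighbouring genes on mouse chromosome 4, and the accessible chromatin of their locus was described here in 5 ATAC-seq libraries of thymocytes. The locus was taken as the 150 kb of chromosome 4 from 144.78 to 144.93 Mb (mm9, Tnfrsf1b first and then Tnfrsf8), and every peak that overlapped it was a member. Merging the peaks of all 5 lists gave 134 regions in the locus, out of 157434 in the series. The locus was chosen by the number of regions in SOX13lo against SOX13hi in an earlier count of these data, where SOX13lo held more. Every comparison with SOX13lo below is therefore a description and carries no test.

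ATAC-seq uses a transposase to cut and tag open DNA, so a peak marks a stretch where the enzyme had access. SOX13, a DNA-binding protein with an HMG box, marks a subset of γδ T cells, which bear a receptor of a γ and a δ chain in place of the αβ receptor. Per the labels, 40000 CD24+ γδ thymocytes were sorted by CFP, a fluorescent reporter placed in one Sox13 allele, into a high fraction (SOX13hi) and a low to negative fraction (SOX13lo). The non-transgenic fractions came from TCRbeta KO.Sox13 ECFP KI/+ animals, and the transgenic fractions from TCRbeta KO.Sox13tg+.Sox13 ECFP KI/+ animals, so all 4 γδ libraries carry the TCRbeta deletion and the reporter allele. CD4 and CD8 double-positive (DP) thymocytes came from wild type animals and carry neither, so cell type and genotype cannot be told apart in any comparison with DP. All animals were C57BL/6. The sources used here do not give age, the number of animals pooled or the promoter of the Sox13 transgene.

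Each group holds 1 library, so no value has a replicate and no p-value is given. Intervals are exact 95% intervals. They cover counting error only and treat peaks as independent, which neighbouring peaks are not. The lists held 33155 peaks (transgenic SOX13lo) to 113877 peaks (DP), and the read depth behind them is unknown. All 67482 lines of the SOX13lo list carry SOX13hi in their name field, so this list goes against its label there. The sample's label was followed, and every direction drawn from SOX13lo rests on it. The transgenic SOX13hi and DP libraries carry the same index in the labels. No mm9 annotation was used, so peaks were not assigned to promoters, exons or introns, and the sorted cell types were not checked against markers.

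Tnfrsf1b encodes TNFR2, a receptor for tumour necrosis factor that lacks a death domain and signals through TRAF adaptors to NF-κB. Tnfrsf8 encodes CD30, the receptor of CD30 ligand, which also signals through TRAF adaptors and is found on activated lymphocytes. Both are cell-surface receptors of the TNF receptor superfamily, whose members tune survival and activation of T cells. In RefSeq's gene order the protein-coding neighbours are Dhrs3, a retinol metabolism enzyme, before Tnfrsf1b, and the predicted gene Gm42346 after Tnfrsf8.

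The promoters of both members are shown because the peaks lie around these genes and the series turns on an HMG-box factor. They are the 250 bases before each gene's start in RefSeq's table (2 of 2 members matched), on GRCm38.p6, a different build from the mm9 peaks, so no peak was placed on them. Tnfrsf1b is at chr4:145246871-145247120 and Tnfrsf8 at chr4:145315165-145315414, both on the minus strand and printed 5′ to 3′ as transcribed. Capitals mark matches to 8 motifs searched on both strands.
Tnfrsf1b: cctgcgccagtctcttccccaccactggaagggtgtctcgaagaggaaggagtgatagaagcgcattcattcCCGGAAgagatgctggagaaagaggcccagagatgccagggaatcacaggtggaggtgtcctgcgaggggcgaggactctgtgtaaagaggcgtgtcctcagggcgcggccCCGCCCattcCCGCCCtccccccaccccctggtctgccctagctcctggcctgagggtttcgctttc
Tnfrsf8: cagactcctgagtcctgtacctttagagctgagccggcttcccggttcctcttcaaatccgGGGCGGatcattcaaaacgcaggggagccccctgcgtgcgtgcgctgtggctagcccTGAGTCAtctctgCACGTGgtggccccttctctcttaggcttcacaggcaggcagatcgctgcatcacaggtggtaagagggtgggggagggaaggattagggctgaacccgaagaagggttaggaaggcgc

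The Tnfrsf1b promoter holds 2 GC boxes (GGGCGG, read here on the other strand as CCGCCC) that begin 67 and 57 bases before the start, and 1 ETS match (CCGGAA) at 178 bases. The Tnfrsf8 promoter holds 1 GC box at 189 bases, 1 AP-1 match (TGANTCA) at 132 bases and 1 E-box (CACGTG) at 119 bases. CACGTG was the only E-box form searched, so other forms are not marked in either promoter. The marked matches do not overlap each other. Of the 32851 promoters in the table, 32.7% hold the GC box, 12.0% the ETS motif, 6.75% the AP-1 motif and 6.02% the E-box. The SOX (AACAAT), TCF/LEF (CTTTGA), RUNX (TGTGGT) and NF-κB letters, held by 9.42%, 13.8%, 14.0% and 0.356% of promoters, are not in either window. The GC content was 62.8% for Tnfrsf1b and 60.0% for Tnfrsf8, against a median of 52.4% over all promoters in the table.

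The first comparison asked how the open sites of the locus differ between the SOX13lo library and the other 4. The SOX13lo list held 78 peaks in the locus (exact Poisson interval 61.7 to 97.3) and the SOX13hi list held 40 (28.6 to 54.5). The transgenic SOX13hi list held 38 (26.9 to 52.2), the transgenic SOX13lo list 20 (12.2 to 30.9) and the DP list 88 (70.6 to 108.4). DP thus had the highest number and transgenic SOX13lo the lowest, and these are also the longest and the shortest lists. Per 1000 peaks of the list the locus held 1.16 in SOX13lo, 0.735 in SOX13hi and 0.773 in DP, and the transgenic lists held 0.594 (SOX13hi) and 0.603 (SOX13lo). On this scale SOX13lo was the highest and the other 4 libraries lay close together.

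To set list length aside, the 33155 highest-scoring peaks of each list were taken. SOX13lo then held 39 locus peaks (27.7 to 53.3), SOX13hi 25 (16.2 to 36.9), transgenic SOX13hi 27 (17.8 to 39.3), transgenic SOX13lo 20 and DP 23 (14.6 to 34.5). SOX13lo stayed the highest, but its interval overlapped that of each other library. Of the 39 SOX13lo peaks, 4 were tied at the lowest score kept, and 35 remained without the tied peaks. The lowest score kept in the locus was 15 in SOX13lo and the highest left out was 14. For SOX13hi these were 11 and 9, for transgenic SOX13hi 12 and 11, and for DP 26 and 22. These scores are the authors' and were ranked within a list only.

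**Figure D1:**
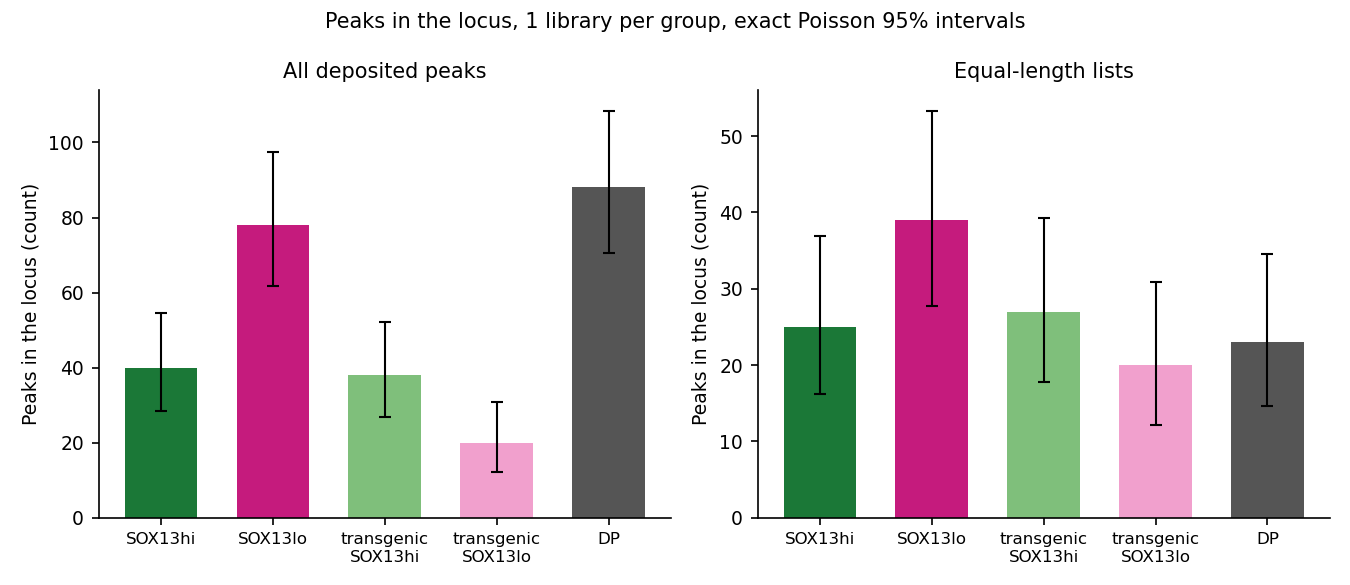
Peaks overlapping the locus (count, from 0) in each library, with all deposited peaks on the left and the 33155 highest scores of each list on the right. Bars are counts of 1 library each and lines are exact Poisson 95% intervals. DP (88) and SOX13lo (78) are highest on the left, and SOX13lo (39) is highest on the right, where all intervals overlap its own.

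As ratios in lists of equal length, SOX13lo held 1.56 times the SOX13hi peaks (interval 0.921 to 2.69) and 1.44 times those of transgenic SOX13hi (0.862 to 2.45). It held 1.95 times those of transgenic SOX13lo (1.11 to 3.53) and 1.70 times those of DP (0.988 to 2.97). With all peaks scaled to list totals the ratios were 1.57 (1.06 to 2.36), 1.94 (1.30 to 2.95), 1.92 (1.16 to 3.31) and 1.496 (1.09 to 2.05), in the same order. The 4 ratios share the SOX13lo count for which the locus was chosen, so each of them, and each call below, is a description, and nothing is read from an interval that lies above 1.

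The whole genome gives the background for these ratios. It was tiled in 150 kb windows, and a window was called when SOX13lo was at least 1.5-fold and at least 5 peaks higher. Against SOX13hi, 8.57% of 4784 windows were called with all peaks and 4.14% of 2585 with lists of equal length, and the locus was called in both. The call with equal lists lay near the limit. The fold was under 1.5 with tied peaks dropped (1.40), with the upper 50% of each list (1.38), without peaks of 30 bp or less (1.31), with peaks joined within 150 bp (1.29) or 500 bp (1.11) and in covered bases (1.21). No other window had a larger difference in either, which is how the locus was chosen. Against transgenic SOX13hi, 7.13% and 5.25% of windows were called, and the locus was called with all peaks only, since its 1.44-fold fell under the limit. Against transgenic SOX13lo, 15.3% and 7.57% were called, and the locus was called in both. Against DP, 11.8% and 7.79% were called, and the locus was called with equal lists only.

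In sorted populations a site open in fewer cells and a site less open in each cell cannot be told apart. The locus was among the densest windows in every library, not in SOX13lo alone. Of windows with a peak, 9 of 8435 held more peaks than the locus in SOX13hi, 1 of 8843 in SOX13lo and 12 of 8912 in DP. For the transgenic lists these were 13 of 8939 (SOX13hi) and 43 of 7159 (SOX13lo). The median window with a peak held 5 peaks in SOX13hi, 6 in SOX13lo, 9 in DP, 5 in transgenic SOX13hi and 4 in transgenic SOX13lo. The windows next to the locus did not share the excess. In the 150 kb after it SOX13lo held 8 peaks and SOX13hi 9, and in the 150 kb before it 5 and 8. One window further back SOX13lo held 27 and SOX13hi 15, or 11 and 14 with equal lists.

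The border peaks were as follows. The last SOX13lo peak before the locus ended 12.0 kb outside it, and the first inside began 4.30 kb after the border. At the far border the last SOX13lo peak inside ended 20.4 kb short of it, and a peak with a score of 137 began 1.95 kb beyond it. All 5 lists held a peak within 2 kb beyond the far border. Only DP held peaks in the last 20 kb of the locus, with 4 in 3 short stretches.

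The locus is best seen as a set of discrete open elements. Peaks of any list were joined where gaps were at most 500 bp, which gave 44 elements. Of these, 10 held a peak of all 5 libraries and 16 a peak of 1 library, of which 10 were DP alone and 6 SOX13lo alone. DP had peaks in 36 elements, SOX13lo in 32, transgenic SOX13hi in 24, SOX13hi in 21 and transgenic SOX13lo in 12. With all peaks every element with a SOX13hi peak also held a SOX13lo peak, and 11 elements held SOX13lo and no SOX13hi peak. With lists of equal length 5 elements held SOX13lo and no SOX13hi peak, and 1 held SOX13hi and no SOX13lo peak. Elements were counted in the locus only, so no genome share stands beside these counts.

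**Figure D2:**
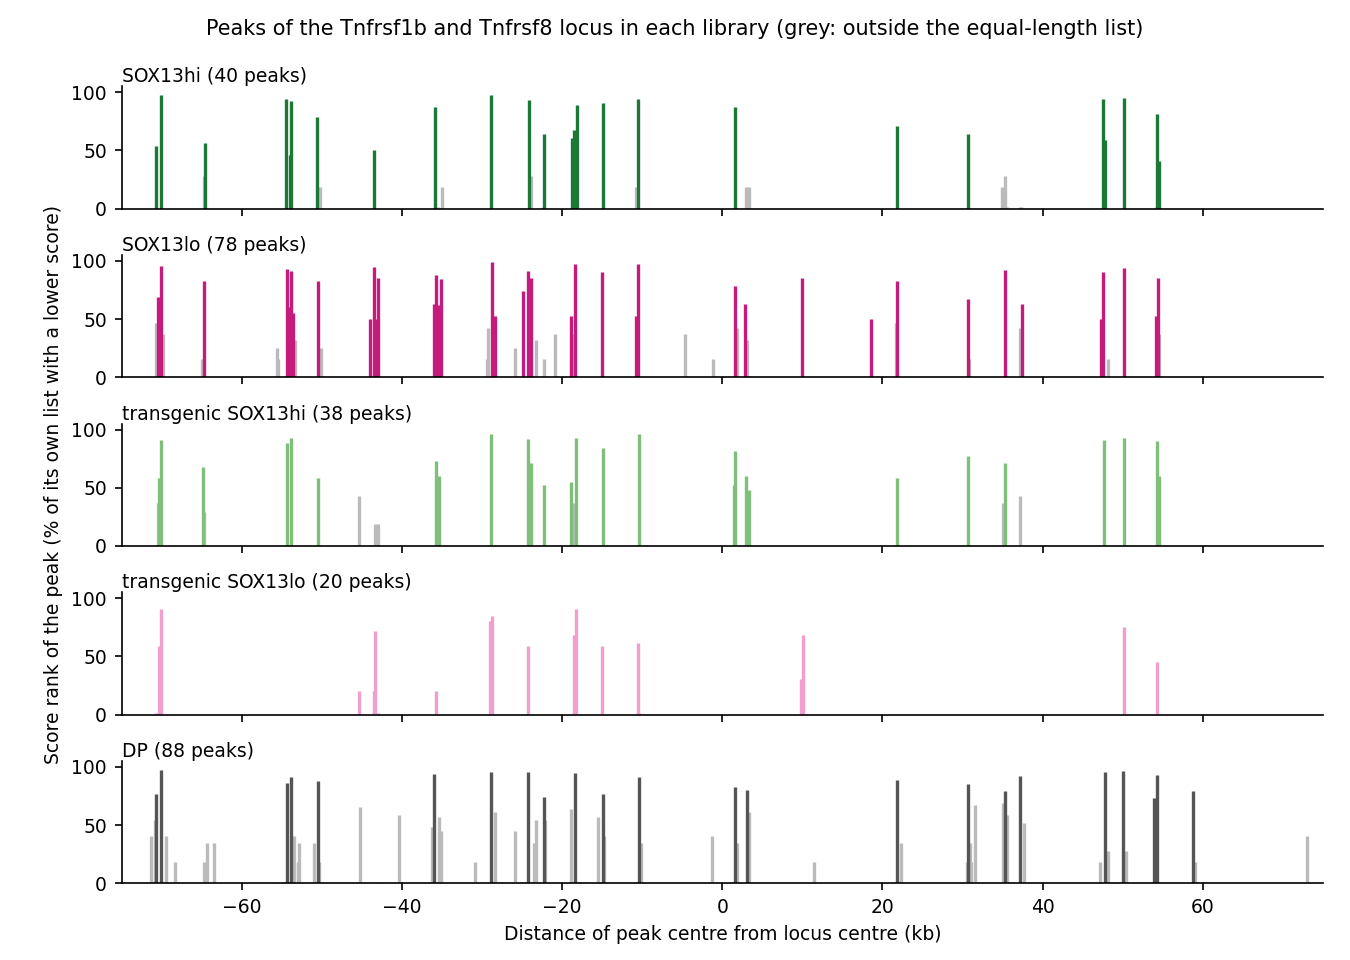
Each vertical line is a peak, placed by its distance from the locus centre (kb), and its height is the percentage of peaks in its own list with a lower score. Heights depend on the length of the list and do not compare strength between libraries. Coloured lines are in the 33155 highest scores of the list and grey lines are not. Most tall peaks stand at the same places in SOX13hi, SOX13lo, transgenic SOX13hi and DP, and SOX13lo has 78 peaks against 40 in SOX13hi.

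Most of the extra SOX13lo peaks lay in elements that were also open in SOX13hi. The 21 elements common to both held 65 SOX13lo peaks and all 40 SOX13hi peaks, and the 11 others held the remaining 13. SOX13lo had more peaks than SOX13hi in 24 elements, the same number in 7 and fewer in 1. With lists of equal length it had more in 11 elements and fewer in 2. With all peaks the mean number of peaks per occupied element was 2.44 in SOX13lo, 1.90 in SOX13hi and 2.44 in DP. It was 1.58 for transgenic SOX13hi and 1.67 for transgenic SOX13lo. With lists of equal length 22 elements were occupied in SOX13lo, 20 in DP, 19 in transgenic SOX13hi, 18 in SOX13hi and 12 in transgenic SOX13lo. Counted as elements, SOX13lo was thus close to all but transgenic SOX13lo, whereas the mean number of peaks per element was 1.77 in SOX13lo, 1.39 in SOX13hi and 1.15 in DP, against 1.42 for transgenic SOX13hi and 1.67 for transgenic SOX13lo.

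Covered bases gave a smaller difference from SOX13hi than peaks did. SOX13lo peaks covered 7942 bases of the locus (5.29%), SOX13hi 4762, transgenic SOX13hi 3763, transgenic SOX13lo 1924 and DP 8010. Per Mb covered by the whole list these were 1113, 909, 642, 725 and 678 bases in the same order. In equal lists, scaled to list bases, the fold was larger than for peaks against DP (1.78 against 1.70) and transgenic SOX13hi (1.57 against 1.44). It was smaller against SOX13hi (1.21 against 1.56) and transgenic SOX13lo (1.55 against 1.95). Median peak width in the locus was 46.5 bp in SOX13lo and 67.5 bp in SOX13hi. At 3 elements SOX13hi held 1 peak that covered more bases than 2 or more SOX13lo peaks did.

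**Figure D3:**
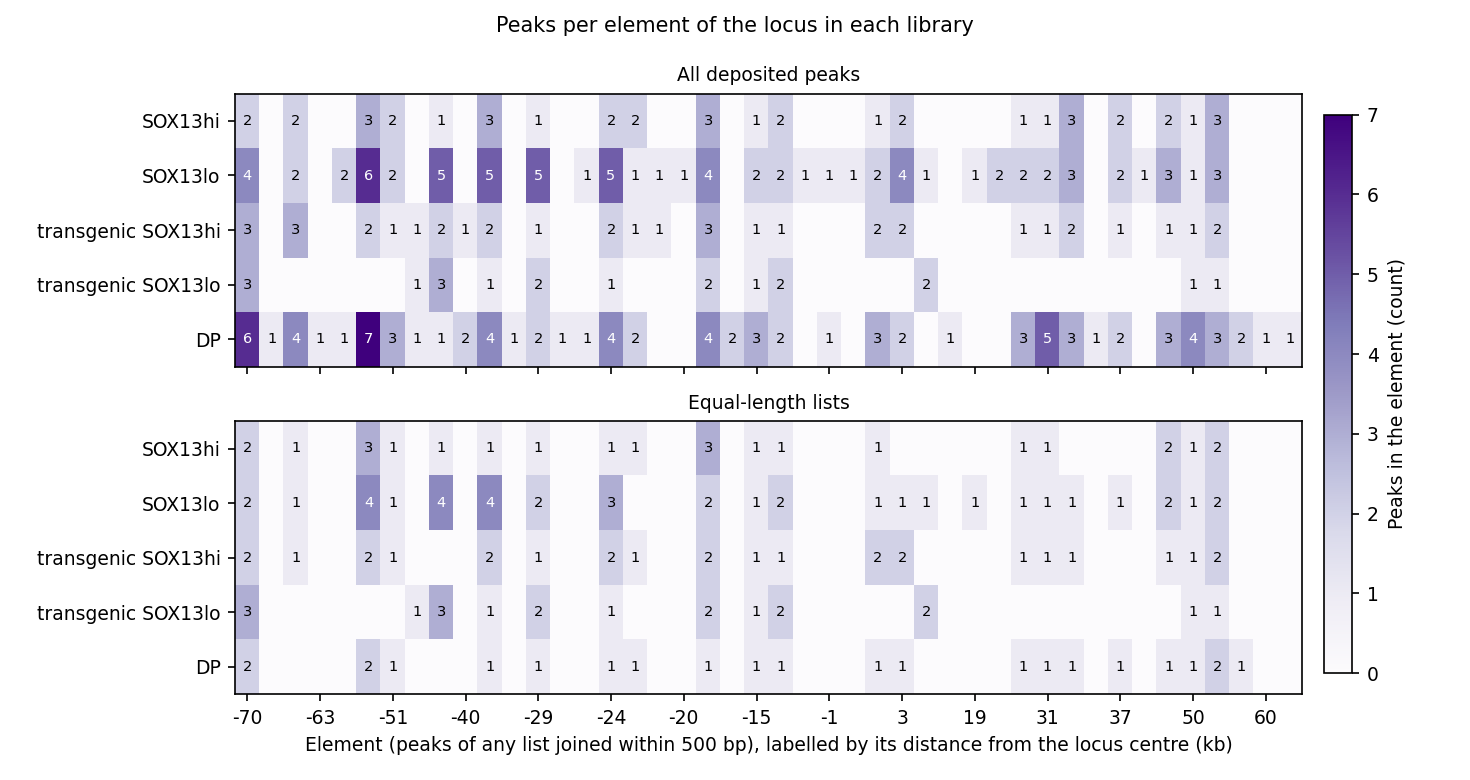
Number of peaks (count, colour and digit) of each library in each of the 44 elements, ordered along the locus and labelled by distance from its centre (kb), with all peaks above and lists of equal length below. SOX13lo has up to 6 peaks in elements where SOX13hi has 1 to 3, and transgenic SOX13lo has no peak in most elements of the far part.

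The highest-scoring SOX13lo peak of the locus, and its strongest site in SOX13hi and transgenic SOX13hi, lay in 1 element at 144825633 to 144826688. SOX13lo held 5 peaks there covering 369 bases, and the top one, at 144826110 to 144826276 with a score of 353, exceeded 99.1% of the SOX13lo list. SOX13hi held 1 peak of 526 bp that exceeded 97.8% of its list, and transgenic SOX13hi 1 peak of 540 bp that exceeded 96.4%. Transgenic SOX13lo held 2 peaks (85.0% for the higher) and DP 2 (95.8%). Such a percentage depends on the length of its list, so here and below it does not compare strength between libraries. This element was open in all libraries, with more peaks but fewer bases in SOX13lo than in SOX13hi.

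The element at 144835932 to 144837143 was also held by all 5 lists, with 3 peaks in SOX13hi, 4 in SOX13lo, 4 in DP, 3 in transgenic SOX13hi and 2 in transgenic SOX13lo. Its covered bases were 524, 303, 1034, 525 and 403 in the same order, so SOX13lo was the lowest here. It held the highest-scoring locus peak of transgenic SOX13lo, which exceeded 90.8% of that list. At the other elements chosen for covered bases alone, 144904552 to 144905542 held 1 peak in each γδ library and 4 in DP. The element at 144908639 to 144909620 held 3, 3, 2, 1 and 3 peaks in SOX13hi, SOX13lo, transgenic SOX13hi, transgenic SOX13lo and DP.

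The 5 elements with the largest SOX13lo excess over SOX13hi in covered bases all lay at or before 144831809. At 144800250 to 144802188 SOX13lo covered 872 bases in 6 peaks and SOX13hi 163 in 3. Transgenic SOX13hi covered 306 bases there, DP 563 and transgenic SOX13lo had no peak. At 144783589 to 144785548 SOX13lo covered 610 bases, SOX13hi 103, transgenic SOX13hi 203, transgenic SOX13lo 394 and DP 419. SOX13hi was the lowest at this element, although its top peak there exceeded 97.3% of its list.

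At 144818731 to 144819986 SOX13lo covered 783 bases in 5 peaks, SOX13hi 307 in 3, transgenic SOX13hi 156 in 2, transgenic SOX13lo 66 in 1 and DP 523 in 4. At 144829924 to 144831809 the bases were 783, 508, 116, 98 and 197 in the same order of libraries. SOX13lo was the highest of the 5 lists at both elements.

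The fifth, at 144811070 to 144812207, was the one of these 5 in which both SOX13lo libraries exceeded both SOX13hi libraries and DP in peaks. SOX13lo held 5 peaks over 463 bases and transgenic SOX13lo 3 over 255, against 1 over 28 in SOX13hi, 2 over 57 in transgenic SOX13hi and 1 over 28 in DP. The highest SOX13lo peak, at 144811559 to 144811586, exceeded 95.1% of its list, and the highest transgenic SOX13lo peak 71.6%. The highest peaks of SOX13hi, transgenic SOX13hi and DP exceeded 50.6%, 19.0% and 0% of theirs. With lists of equal length the counts were 4 in SOX13lo, 3 in transgenic SOX13lo, 1 in SOX13hi and 0 in transgenic SOX13hi and DP.

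A further element was picked with its values in view. At 144864874 to 144865130 it held 1 SOX13lo peak, 2 transgenic SOX13lo peaks and no peak of the other 3 lists. It was the only 1 of the 44 elements present in both SOX13lo libraries and absent from both SOX13hi libraries, with all peaks and with equal lists. The SOX13lo peak (102 bp) exceeded 85.6% of its list and the higher transgenic SOX13lo peak 68.4% of its own, shorter list. These 2 percentages do not rank the peaks against each other. The SOX13lo and transgenic SOX13lo peaks did not overlap each other. No element was present in both SOX13hi libraries and absent from both SOX13lo libraries with all peaks. With equal lists there was 1, at 144832580 to 144832945, where DP also held a peak.

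The next question was which SOX13lo positions the other libraries shared. Of the 78 SOX13lo peaks, 32 (41.0%, exact Clopper-Pearson interval 30.01 to 52.7) met a SOX13hi peak by at least 1 bp, against 46.4% over the whole SOX13lo list. For transgenic SOX13hi the share was 33.3% (23.1 to 44.9) against 49.8%, for transgenic SOX13lo 15.4% (8.21 to 25.3) against 28.0%, and for DP 47.4% (36.0 to 59.1) against 60.9%. The locus share was below the list's share in all 4, and for transgenic SOX13hi, transgenic SOX13lo and DP the list's share lay above the interval. With equal lists it lay above the interval for transgenic SOX13lo only (28.2%, 15.0 to 44.9, against 48.7%). It lay inside for SOX13hi (51.3%, 34.8 to 67.6, against 61.9%), transgenic SOX13hi (53.8%, 37.2 to 69.9, against 61.7%) and DP (46.2%, 30.1 to 62.8, against 62.2%). In the opposite direction 34 of 40 SOX13hi peaks (85.0%, 70.2 to 94.3) met a SOX13lo peak, against 62.7% over the SOX13hi list. The locus was chosen for its SOX13lo peaks, so nothing is read from where a list's share lies against these intervals. With all peaks, the 46 SOX13lo peaks without a SOX13hi partner had a median score of 11 and a median width of 29 bp. Those with a partner had 55.5 and 133 bp. With equal lists the medians were 22 and 101 bp without a partner, and 93 and 187.5 bp with one. Such medians were not taken over the whole SOX13lo list. Of the 46 peaks, 28 had their centre within 500 bp of a SOX13hi peak centre. The median distance of the 46 to the nearest SOX13hi centre was 386 bp. It was 392 bp for all peaks without a SOX13hi partner in the SOX13lo list, so this nearness was not particular to the locus.

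In merged regions, SOX13lo held 41 of the 134 that SOX13hi lacked (30.6%, against 18.6% in the series). SOX13hi held 5 that SOX13lo lacked (3.73%, against 9.23% in the series). Of the 41 that SOX13lo held and SOX13hi lacked, DP held 8 (19.5%), transgenic SOX13hi 2 and transgenic SOX13lo 1. Over the whole series DP held 39.1% of such regions, transgenic SOX13hi 22.2% and transgenic SOX13lo 7.61%. Regions of SOX13lo alone made up 33 of the 134 (24.6%), against 9.73% in the series. Regions present in all 5 libraries made up 6.72%, against 9.45%. With equal lists 12 of 49 regions were SOX13lo alone (24.5% against 8.70%). SOX13lo then held 17 of the 49 that SOX13hi lacked (34.7%, against 17.5% in the series). Of these 17, transgenic SOX13hi held 4 (23.5%, against 26.0% in the series), and transgenic SOX13lo and DP 1 each (5.88%, against 20.8% and 34.5%).

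The counts were also followed down the score ranks. Among the 1000 highest scores SOX13lo held 1 locus peak and the other lists 0, and among the 2500 highest SOX13lo held 3, SOX13hi and transgenic SOX13hi 2 each and the others 0. Among the 5000 highest scores of each list SOX13hi held 9 locus peaks, SOX13lo 7, transgenic SOX13hi 5, transgenic SOX13lo 3 and DP 3. Among the 10000 highest the counts were 13, 17, 10, 6 and 11, among the 15000 highest 14, 22, 13, 12 and 13, and among the 20000 highest 18, 23, 17, 13 and 16. Among the 30000 highest they were 25, 31, 26, 19 and 22. Among the 50000 highest SOX13hi held 37, SOX13lo 55, transgenic SOX13hi 34 and DP 35. SOX13lo held the most locus peaks at each of these numbers but 5000, where SOX13hi did. Its lead over SOX13hi did not widen steadily, with 8 peaks at 15000, 5 at 20000, 6 at 30000 and 14 at 33155.

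**Figure D4:**
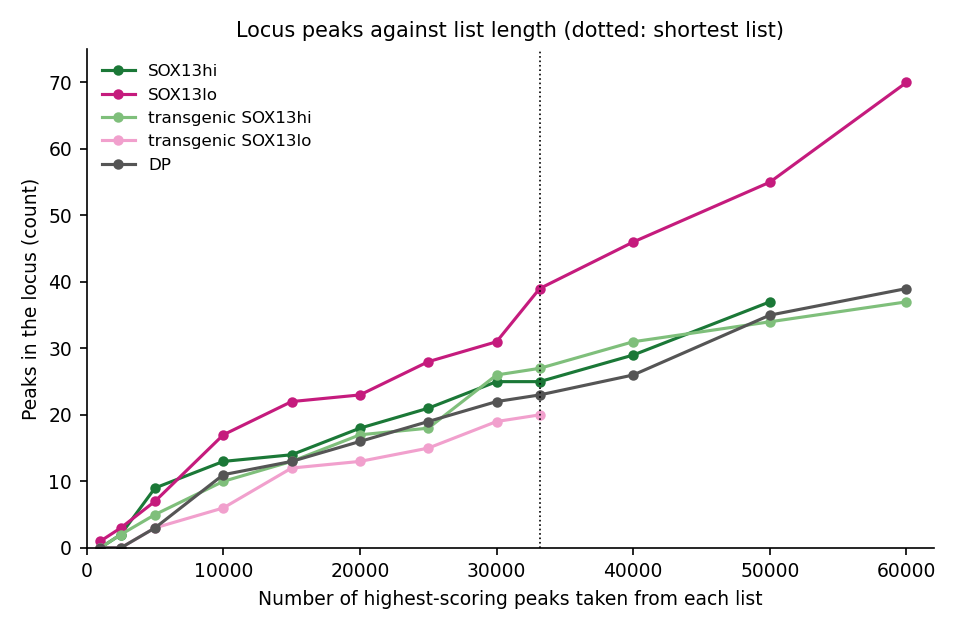
Number of locus peaks (count) among the highest-scoring peaks of each list, against the number of peaks taken. Each point is 1 library, and the dotted line marks 33155, the shortest list. The libraries lie between 3 and 9 at 5000 peaks, and at 50000 SOX13lo reaches 55 against 34 to 37 in the 3 others of that length.

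The transgenic libraries were then compared with each other. Transgenic SOX13lo held 20 locus peaks and transgenic SOX13hi 27 in lists of equal length, a ratio of 0.741 (0.394 to 1.37). With all peaks scaled to list totals the ratio was 1.01 (0.560 to 1.79). Neither interval left out equal numbers, and the locus was not called in either, where 5.16% and 2.30% of windows were called lower and 7.27% and 4.52% higher. Transgenic SOX13hi held 1.08 times the SOX13hi peaks (0.603 to 1.94) in equal lists and 0.809 times (0.505 to 1.29) with all peaks.

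Transgenic SOX13lo lacked peaks in a long stretch of the locus, picked with the values in view as its longest gap there. This list was the shortest and had the fewest locus peaks, and gaps elsewhere in the genome were not counted. From 144865131 to 144905066 (39.9 kb) transgenic SOX13lo held 0 peaks. SOX13hi held 9 there, SOX13lo 16, transgenic SOX13hi 7 and DP 20, which was 18.4% to 22.7% of each library's locus peaks. With equal lists the counts were 4, 7, 5 and 6, against 0 in transgenic SOX13lo. In all, 11 elements were held by SOX13hi, SOX13lo, transgenic SOX13hi and DP and not by transgenic SOX13lo, and 6 with equal lists. In merged regions this pattern made up 13 of 134 (9.70%, against 4.56% in the series). With equal lists it made up 7 of 49 (14.3%, against 4.05% in the series).

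DP and SOX13lo both had peaks in 24 elements, with 73 DP and 69 SOX13lo peaks. DP alone of this pair held 12 elements and SOX13lo alone 8, with the DP list the longer. With lists of equal length DP alone held 2 elements and SOX13lo alone 4. The highest DP peak, at 144784919 to 144785019, exceeded 97.4% of the DP list. In lists of equal length DP held 0.920 times the SOX13hi peaks (0.499 to 1.69).

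Windows with the library pattern most like that of the locus were sought among 3297 windows, by the distance between log2(peaks + 1) values centred over the 5 equal-length lists. The nearest 3 were chr2:177630001-177780000 (distance 0.146), chr10:110280001-110430000 (0.173) and chr12:113130001-113280000 (0.173). They held far fewer peaks than the locus, with 7, 6 and 6 in SOX13lo and 3 to 5 in the other lists, so their likeness rests on differences of 1 to 4 peaks.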

How the data were processed

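ATAC-seq peaks of 5 mouse thymocyte libraries, 1 per group, were analysed. The authors deposited 1 headerless peak list per library with a whole-number score per peak, on mm9 per the submitters' processing notes. Scores were ranked within a list only, since their meaning, like the peak caller, aligner, filters and depth, was not given in the sources used here.

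Peaks overlapping chromosome 4 from 144.78 to 144.93 Mb by at least 1 bp were counted, with all peaks and with the 33155 highest scores of each list, ties drawn at random with a fixed seed. Windows of 150 kb in register with the locus were tested when the pair of lists held at least 10 peaks. Poisson, Clopper-Pearson and conditional binomial intervals are exact (95%). Elements named were the 8 with the most covered bases and the 5 with the largest SOX13lo minus SOX13hi difference in bases. Windows most like the locus needed 20 peaks over the lists. Members, lists and rules were chosen with earlier results of these data known. The planned counts over TNF receptor pathway genes and cell markers need an mm9 annotation and were not analysed here. Functions were tested on simulated lists. Analyses ran in Python 3.11.15 (scipy 1.17.1, pandas 2.3.3, numpy 2.4.6), with figures from matplotlib 3.10.9.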

Additional observations from a re-analysis of the deposited data

Results flagged for a closer look

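The SOX13lo against SOX13hi contrast of the locus ran opposite ways in the non-transgenic and transgenic pairs with lists of equal length. SOX13lo held more peaks than SOX13hi without the transgene (39 against 25, log2 ratio 0.64) and fewer with it (20 against 27, log2 ratio -0.43), a difference of 1.07 on the log2 scale. Both intervals included equal numbers (-0.12 to 1.43 without the transgene and -1.34 to 0.46 with it, in log2). The locus was chosen for its non-transgenic contrast and not for the transgenic one, so nothing is read from the difference between them. Each pair is 1 library against 1, and the difference was not tested. With all peaks scaled to list totals the log2 ratios were 0.65 and 0.02, so the opposite direction was seen with equal lists only.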

How the results depend on the processing

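The direction of SOX13lo over each other library held under all 10 alternatives, and no value left the main interval, although the fold against SOX13hi fell under the 1.5 needed for a call in 6 of them. The locus was chosen for its SOX13lo excess and every alternative reuses the same lists, so a kept direction is a description only. The main interval was wide, from -0.12 to 1.43 in log2 against SOX13hi. There, only the alternative with all peaks had an interval that left out equal numbers (0.09 to 1.24). The log2 ratios ranged from 0.15 to 0.87 against SOX13hi, 0.16 to 0.96 against transgenic SOX13hi, 0.64 to 1.05 against transgenic SOX13lo and 0.25 to 0.95 against DP. Joining peaks within 500 bp, an alternative added after seeing the data, gave the lowest value against SOX13hi (0.15, 22 against 19) and DP (0.25, 22 against 21), and joining within 150 bp the lowest against transgenic SOX13hi (0.16, 28 against 25). Shares of SOX13lo peaks met by another list moved with the overlap rule. With a reciprocal overlap of 50% they were 11.5% for SOX13hi, 5.13% for transgenic SOX13hi, 5.13% for transgenic SOX13lo and 12.8% for DP. With centres within 200 bp they were 55.1% for SOX13hi, 56.4% for transgenic SOX13hi and 67.9% for DP. With equal lists they were 53.8% for transgenic SOX13hi and 28.2% for transgenic SOX13lo. The rules of reciprocal overlap and of centres were not run over the whole SOX13lo list, so their shares have no list share beside them. For all of these shares the cause was not tested. No paired analysis was possible because each group holds 1 library, and none could be left out. Read depth is unknown, so a peak missing from a list may have been below its threshold.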
